A study of Homo sapiens with 12 samples.

Results

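The clustered protocadherins are the protein-coding genes whose symbols begin with PCDHA, PCDHB or PCDHG. There are 53 of them, 15 alpha, 16 beta and 22 gamma genes, beside 57820 gene identifiers in the count data. Members were taken by the gene symbols of the Ensembl identifiers, and 51 were matched to a row of counts. PCDHB16 and PCDHGB5 had no match and were not analysed here.

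Polyadenylated RNA was sequenced from Kyse410 and TE10, established human cell lines from esophageal squamous cell carcinoma that had been stably infected. They expressed either shUHRF1, a short hairpin RNA that targets UHRF1, or a scramble control. The 4 groups were Kyse410 shUHRF1, Kyse410 scramble, TE10 shUHRF1 and TE10 scramble, with 3 libraries each and 12 in all. How many hairpins were used, and whether the infected cells were pools or clones, is not stated in the sources used here. Nothing in the labels says whether the 3 libraries of a group are separate cultures, and p-values therefore reflect only library-to-library spread, which may be technical. Scramble cells are the baseline of each line.

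Clustered protocadherins are cell-surface adhesion proteins of the cadherin superfamily that bind the same isoform on a facing cell, and they are best known for giving single neurons different surface identities. Their genes stand in 3 tandem arrays on human chromosome 5, and each variable exon has a promoter of its own. In the alpha and gamma arrays the chosen variable exon is spliced to constant exons shared by the whole array, whereas beta genes have no constant exons. In neurons promoter choice depends on CTCF, cohesin and DNA methylation, and long-range silencing of the arrays with DNA methylation has been described in several cancers. UHRF1, the targeted gene, binds hemimethylated DNA and recruits the maintenance methyltransferase DNMT1.

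Most of these promoters carry a conserved sequence element with the core CGCT, shown here because promoters of genes with and without reads both carry it. The sequences are the 120 bases before the annotated start in the RefSeq promoter table (GRCh38.p14), all on the + strand. Capitals mark CGCT on the gene strand and the 9-base word found in the largest number of promoters of that array.
PCDHA4, chr5:140806948-140807067: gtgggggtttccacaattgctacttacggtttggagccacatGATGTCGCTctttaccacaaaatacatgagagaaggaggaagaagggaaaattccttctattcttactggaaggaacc
PCDHA7, chr5:140834149-140834268: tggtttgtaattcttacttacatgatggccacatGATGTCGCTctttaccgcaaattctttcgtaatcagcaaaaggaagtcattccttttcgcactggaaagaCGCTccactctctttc
PCDHB4, chr5:141121698-141121817: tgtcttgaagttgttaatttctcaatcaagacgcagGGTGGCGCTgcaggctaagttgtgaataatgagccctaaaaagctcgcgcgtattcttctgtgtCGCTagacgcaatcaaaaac
PCDHB14, chr5:141223223-141223342: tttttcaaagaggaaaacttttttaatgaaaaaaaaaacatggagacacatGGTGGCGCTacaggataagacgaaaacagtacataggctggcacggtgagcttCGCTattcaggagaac
PCDHGA2, chr5:141338640-141338759: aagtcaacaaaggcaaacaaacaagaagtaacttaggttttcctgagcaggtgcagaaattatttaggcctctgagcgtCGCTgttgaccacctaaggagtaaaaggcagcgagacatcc
PCDHGA9, chr5:141402658-141402777: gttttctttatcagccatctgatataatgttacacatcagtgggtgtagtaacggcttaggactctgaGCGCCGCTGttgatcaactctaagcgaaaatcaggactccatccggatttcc
PCDHGB6, chr5:141407901-141408020: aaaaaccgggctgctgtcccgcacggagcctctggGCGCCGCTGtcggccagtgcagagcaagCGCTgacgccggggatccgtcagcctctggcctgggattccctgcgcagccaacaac
PCDHGA10, chr5:141412867-141412986: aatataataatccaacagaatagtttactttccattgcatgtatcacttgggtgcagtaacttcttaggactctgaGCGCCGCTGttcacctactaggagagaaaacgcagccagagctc
PCDHGB7, chr5:141417557-141417676: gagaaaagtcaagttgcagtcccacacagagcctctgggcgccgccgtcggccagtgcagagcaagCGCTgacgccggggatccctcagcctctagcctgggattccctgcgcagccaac
PCDHGA11, chr5:141420931-141421050: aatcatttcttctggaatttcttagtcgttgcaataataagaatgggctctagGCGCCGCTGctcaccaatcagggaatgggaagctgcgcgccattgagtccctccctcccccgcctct

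A promoter was listed for 47 of the 53 genes, and PCDHA3, PCDHA13, PCDHB6, PCDHB11, PCDHGA12 and PCDHGC5 had no entry. CGCT, searched on both strands of the 250 bases before the start, was held by 45 of 47 promoters (95.7%) and by 64.3% of all 27305 promoters in the table. The most shared 9-base word was counted after the sequences were seen, and in each array it holds CGCT. It was GATGTCGCT in 9 of 13 alpha promoters, GGTGGCGCT in 12 of 14 beta promoters and GCGCCGCTG in 10 of 20 gamma promoters, and none of the 3 words was found in a promoter of another array. Among all promoters in the table these words were found in 0.0879%, 0.429% and 0.945%. Each word was chosen for being frequent in its own array, so a higher share there was built into the choice. The word began 43 to 86 bases before the start in alpha genes, 16 to 84 in beta genes and 44 to 99 in gamma genes. PCDHGB7 and PCDHGA2 lack the gamma word but hold CGCT. PCDHA4, PCDHA7 and PCDHB4 hold the word of their array and had no read in any library. The promoters held a median of 6 CpG dinucleotides (range 2 to 18) at a median GC content of 37.6%, against 11 and 58.0% for all promoters. A core motif of CTCF was also searched in these promoters. It was held by 1 of 47 (2.13%), that of the beta gene PCDHB9, and by 4.05% of all 27305 promoters. By array it was in 0 of 13 alpha, 1 of 14 beta and 0 of 20 gamma promoters. Matches describe letters in this window and were not tied to binding or methylation, which were not measured in these libraries.

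Few reads were assigned to the arrays, and most of them to the gamma array. Over all 12 libraries the 51 genes held 2102 reads of 113550138 gene reads (18.5 CPM, counts scaled to the library's gene reads). The gamma array held 1939 reads (92.2%), the beta array 162 (7.71%) and the alpha array 1. That alpha read fell in PCDHA9 in TE10 shUHRF1 replicate 1, and the other 14 alpha genes, PCDHAC1 and PCDHAC2 among them, had none. No read in all 12 libraries allows up to 0.0264 CPM, the level of 3 reads in their summed gene reads. Intervals and such limits cover counting error only, and in bulk RNA fewer expressing cells cannot be told apart from less RNA per cell.

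**Figure D1:**
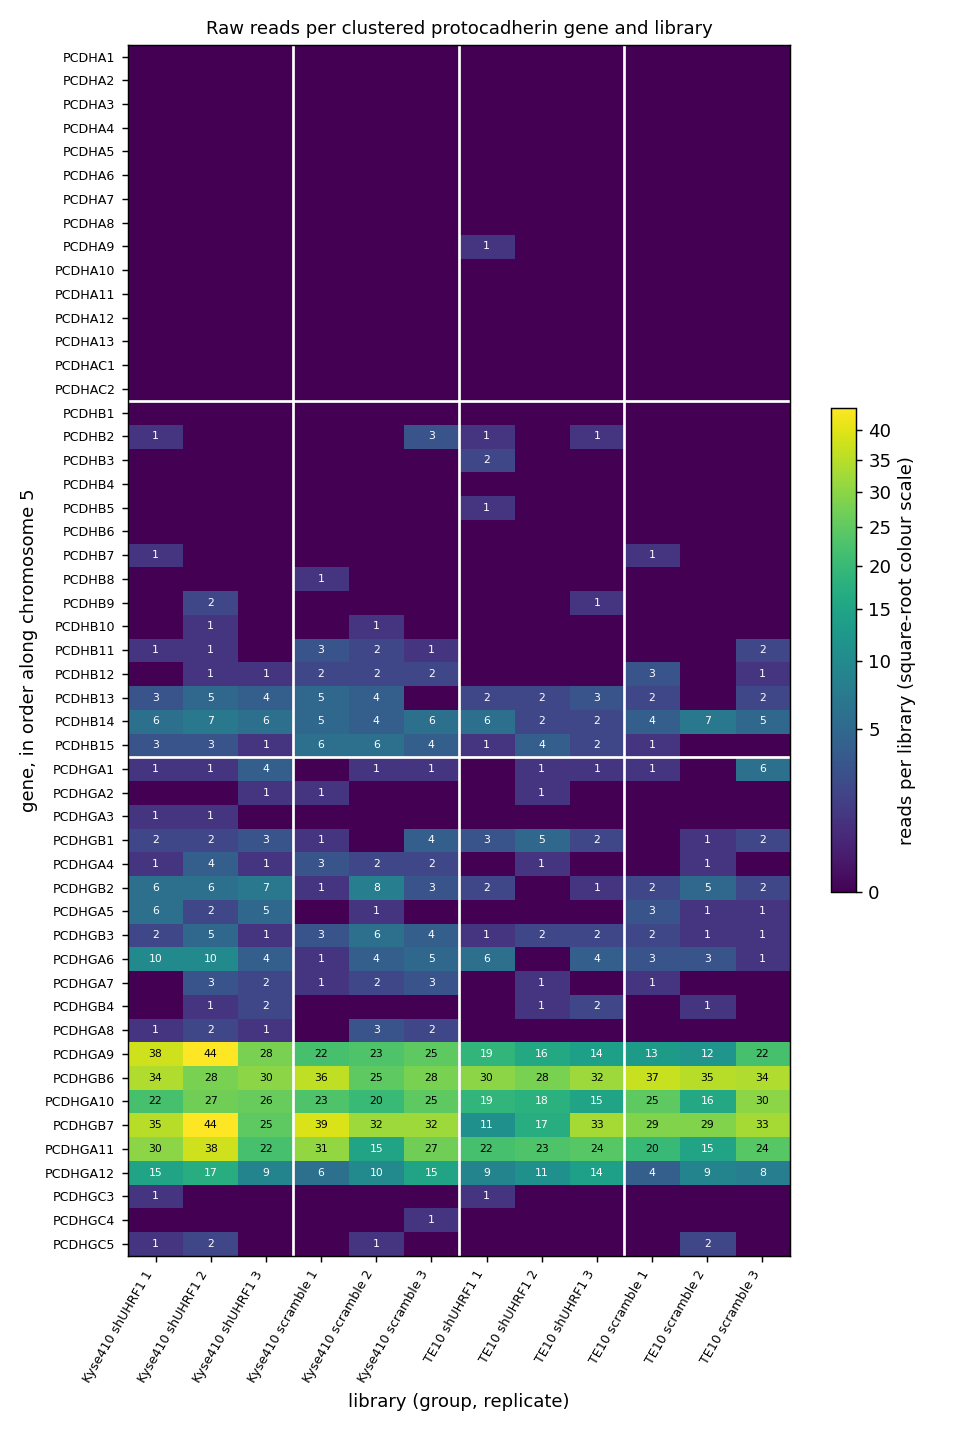
Raw reads of the 51 matched genes (rows, in order along chromosome 5, alpha at the top) in each of the 12 libraries (columns), with the number printed where it is above 0 and colour on a square-root scale. The 6 rows from PCDHGA9 to PCDHGA12 hold 1696 of the 2102 reads, and the alpha rows hold 1.

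The depth behind these values was 7857662 to 12005229 gene reads per library, of 19346007 to 30727953 reads in all. Alpha and gamma genes share 21.3 to 64.4% of their exonic bases with another gene in GENCODE v29, and beta genes share at most 24.9%. The constant exons, annotated to each gene of their array, are part of what alpha and gamma genes share. Other overlaps between genes add to it in some of them, as in PCDHGB4, where 35.6% of exonic bases are unshared. HTSeq sets reads that overlap several genes aside as ambiguous, and each library had 338245 to 471762 such reads (1.38 to 1.98% of reads) beside 133 to 257 reads on the clustered protocadherins. A further 5.49 to 6.86% of reads did not align uniquely and were also left unassigned. Neither kind of read carries a gene name, so the values here count reads assigned to 1 gene and not the output of an array. Reads of overlapping and antisense genes cannot be told apart, because the strand setting of the counting is not given in the sources used here. UHRF1 had 461, 531 and 386 reads in Kyse410 shUHRF1 libraries and 1241, 994 and 1004 in Kyse410 scramble libraries, and 645, 679 and 670 in TE10 shUHRF1 libraries against 1340, 1503 and 1736 in TE10 scramble libraries. Its log2 fold change was -1.22 ± 0.057 (SE) in Kyse410 and -1.06 ± 0.053 in TE10, with adjusted p of 1.617e-24 and 3.217e-23 by edgeR. Of the markers of other cell types, 6 of 9 matched neuronal markers stayed under 10 reads in every library. For these marker sums CPM is relative to the TMM-scaled library. Summed neuronal markers reached 16.9 to 18.0 CPM in Kyse410 shUHRF1 and 19.4 to 22.0 in Kyse410 scramble libraries, and 4.78 to 6.87 in TE10 shUHRF1 and 12.1 to 14.5 in TE10 scramble libraries. The 10 squamous markers summed to 1492 to 1548 CPM in Kyse410 shUHRF1 and 1292 to 1338 in Kyse410 scramble libraries, and to 1936 to 1998 in TE10 shUHRF1 and 1910 to 1961 in TE10 scramble libraries. Markers of simple epithelium summed to 2333 to 2471 CPM in Kyse410 shUHRF1 and 1460 to 1570 in Kyse410 scramble libraries, and to 3962 to 4244 in TE10 shUHRF1 and 3649 to 3701 in TE10 scramble libraries, and no library had more than 1.39 CPM of blood cell markers. The part of these markers in the protocadherin values was not tested.

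Within the gamma array the reads lay in one run of neighbouring genes, PCDHGA9, PCDHGB6, PCDHGA10, PCDHGB7, PCDHGA11 and PCDHGA12, a run picked out after the counts were seen. These 6 genes held 87.5% of the gamma reads. The 12 matched gamma genes upstream of them held 234 reads (12.1%), and the 3 genes downstream, the C-type genes PCDHGC3, PCDHGC4 and PCDHGC5, held 9 (0.464%). PCDHGB5, which lies directly upstream of PCDHGA9, had no row of counts, so the upstream edge of the run is not known. PCDHGC3 had 1 read in Kyse410 shUHRF1 replicate 1, 1 in TE10 shUHRF1 replicate 1 and 0 in the other 10 libraries. By subtype, the 12 type A genes held 1089 reads and the 6 matched type B genes 841. The pseudogene PCDHGB8P, which lies within the run and was not counted among the 53, held 134 reads, with 23, 14 and 8 in Kyse410 shUHRF1, 12, 7 and 7 in Kyse410 scramble, 11, 9 and 15 in TE10 shUHRF1 and 10, 8 and 10 in TE10 scramble libraries.

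The beta reads also lay mostly in neighbouring genes, again picked out after the counts were seen. PCDHB12, PCDHB13, PCDHB14 and PCDHB15 held 135 of its 162 reads (83.3%), and none of the other 11 matched beta genes had more than 10 over all libraries. The edge of that group is not sharp, with 12 reads in PCDHB12 and 10 in its neighbour PCDHB11. PCDHB14 was the most read beta gene, with 6, 7 and 6 reads in Kyse410 shUHRF1, 5, 4 and 6 in Kyse410 scramble, 6, 2 and 2 in TE10 shUHRF1 and 4, 7 and 5 in TE10 scramble libraries. These counts overlap between all 4 groups. PCDHB13 had 3, 5 and 4 reads in Kyse410 shUHRF1, 5, 4 and 0 in Kyse410 scramble, 2, 2 and 3 in TE10 shUHRF1 and 2, 0 and 2 in TE10 scramble libraries. PCDHB12 had at most 3 reads in a library.

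Only 6 of the 51 genes passed the filter on low counts (11.8%), the 6 of the gamma run, against 12358 of 19263 protein-coding genes (64.2%). The non-clustered protocadherins passed in 8 of 15 cases (53.3%). Of the 45 genes that did not pass, 17 had no read and 28 had 1 to 60 reads over all libraries and at most 10 in any library. Passing required enough reads in at least 3 libraries, of whichever groups, so a test was made for 6 genes and the other 45 are described by their reads. The 6 tested genes were low themselves, with means of 1.13 to 3.41 CPM over all libraries (from here on CPM is relative to the TMM-scaled library), and 6.09 to 20.3% of all 16060 tested genes had a lower mean.

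Per kilobase of unshared exon, PCDHGB7 was the highest of the 6 in both lines at baseline, with 1.13 ± 0.042 CPM per kb in Kyse410 scramble and 1.28 ± 0.058 in TE10 scramble libraries (SD, n = 3 each). PCDHGA12 was the lowest, with 0.371 ± 0.178 in Kyse410 scramble and 0.308 ± 0.106 in TE10 scramble libraries. In Kyse410 scramble cells PCDHGA9 (0.844 ± 0.128), PCDHGA11 (0.606 ± 0.160), PCDHGB6 (0.589 ± 0.042) and PCDHGA10 (0.469 ± 0.057) lay between these. Neighbours in that order did not differ beyond 1 SD around each mean, except PCDHGB7 above PCDHGA9 and PCDHGB6 above PCDHGA10. In TE10 scramble cells the order was PCDHGB7, PCDHGB6 (0.909 ± 0.128), PCDHGA9 (0.706 ± 0.181), PCDHGA11 (0.634 ± 0.124), PCDHGA10 (0.621 ± 0.169) and PCDHGA12. There PCDHGB7 stood above PCDHGB6, and PCDHGA12 stood below PCDHGA10, by more than those SDs, and the neighbours between them did not. Unshared lengths come from an annotation of another build than the counts, so these levels and their order are approximate, and the SDs leave out error in the lengths. Before division by length PCDHGB6 was the highest in TE10 scramble libraries, with 4.18 ± 0.591 CPM against 3.56 ± 0.161 for PCDHGB7. In Kyse410 scramble libraries PCDHGB7 was the highest without that division as well, at 3.16 ± 0.117 CPM.

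**Figure D2:**
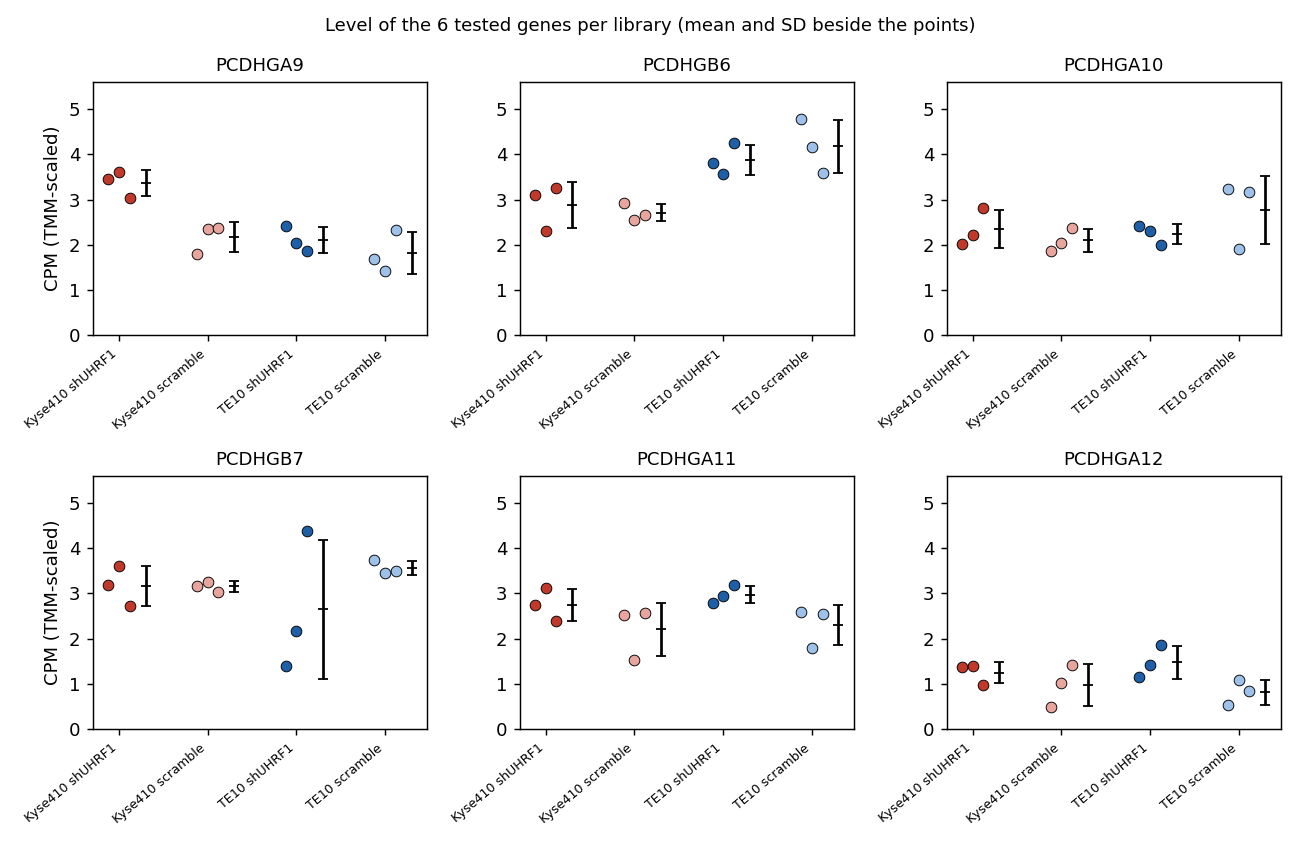
TMM-scaled CPM of the 6 tested gamma genes (one panel each) in the 3 libraries of each group, with the mean and SD as a bar beside the points. PCDHGA9 in Kyse410 shUHRF1 libraries sits at 3.04 to 3.61 CPM, above every other library shown for it, and PCDHGB7 spreads from 1.40 to 4.38 CPM within TE10 shUHRF1.

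Knockdown of UHRF1 in Kyse410 was accompanied by more reads on 1 gamma gene, and the other 5 tested genes were not called. PCDHGA9, an A-type gamma adhesion protein, had 38, 44 and 28 reads in shUHRF1 libraries and 22, 23 and 25 in scramble libraries. Scaled for depth this was 3.47, 3.61 and 3.04 CPM in shUHRF1, against 1.79, 2.35 and 2.37 CPM in scramble libraries. Every shUHRF1 library lay above every scramble library, as was found in 25.6% of all tested genes. The log2 fold change of PCDHGA9 was 0.65 ± 0.26 (SE; 95% interval 0.12 to 1.18, or 1.09-fold to 2.27-fold). It was called higher by edgeR's quasi-likelihood test with Benjamini-Hochberg adjustment over all 16060 genes (adjusted p = 0.0364). DESeq2 did not call it (0.66, adjusted p = 0.0836), and its adjusted p was 0.05004 to 0.162 when any one of Kyse410 shUHRF1 replicates 1 and 2 or of the 3 Kyse410 scramble libraries was left out. Of the 6 tested genes 1 was therefore called higher and 0 lower, while 49.3% of all tested genes were called, 22.6% higher and 26.7% lower, in this comparison. That share does not set the gamma genes apart.

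The other 5 tested genes had estimates between 0.02 and 0.40 in Kyse410, none of which passed (adjusted p 0.357 to 0.960). PCDHGB7 had 35, 44 and 25 reads in shUHRF1 and 39, 32 and 32 in scramble libraries, and its log2 fold change was 0.02 ± 0.26. PCDHGB6 had 34, 28 and 30 reads in shUHRF1 and 36, 25 and 28 in scramble libraries (0.07 ± 0.25). PCDHGA10 had 22, 27 and 26 reads in shUHRF1 and 23, 20 and 25 in scramble libraries (0.16 ± 0.29). For each of these 3 genes the CPM values of the groups overlap. PCDHGA11 had 30, 38 and 22 reads in shUHRF1 and 31, 15 and 27 in scramble libraries (0.31 ± 0.27). PCDHGA12 had 15, 17 and 9 reads in shUHRF1 and 6, 10 and 15 in scramble libraries (0.40 ± 0.41). Both of these also overlap between groups. The 95% interval was 0.706-fold to 1.46-fold for PCDHGB7, 0.741-fold to 1.48-fold for PCDHGB6, 0.747-fold to 1.66-fold for PCDHGA10, 0.851-fold to 1.81-fold for PCDHGA11 and 0.741-fold to 2.34-fold for PCDHGA12, so the bound on each gene is its own.

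**Figure D3:**
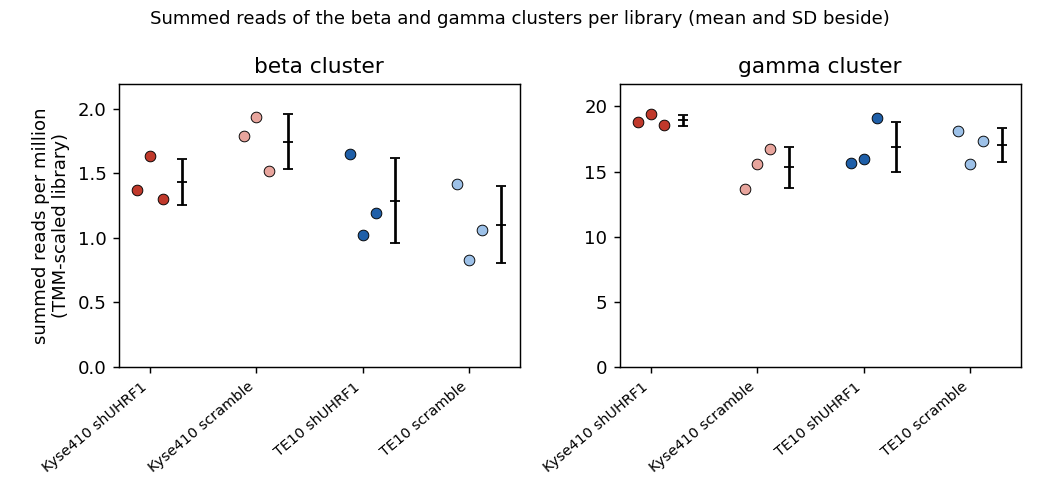
Summed TMM-scaled CPM of the beta array (left) and the gamma array (right) in each library, with the mean and SD beside the points of each group. The gamma sums of Kyse410 shUHRF1 libraries (18.6 to 19.4) lie above those of Kyse410 scramble libraries (13.7 to 16.8), and the beta sums of Kyse410 scramble libraries (1.52 to 1.94) lie above those of TE10 scramble libraries (0.832 to 1.42).

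The summed gamma array reached 18.9 ± 0.447 CPM in Kyse410 shUHRF1 and 15.3 ± 1.58 in Kyse410 scramble libraries (SD, n = 3 each), a ratio of 1.23, and no test was run on this sum. Gamma genes outside the run of 6 had 102 reads in Kyse410 shUHRF1 and 64 in Kyse410 scramble libraries, a ratio of 1.63 after scaling to gene reads (95% counting interval 1.18 to 2.27). That interval leaves out the spread between replicates, and the run was picked out after the counts were seen. The 12 upstream genes alone had 30, 37 and 31 reads in Kyse410 shUHRF1 and 11, 27 and 24 in Kyse410 scramble libraries. Among them PCDHGA6 had 10, 10 and 4 reads in Kyse410 shUHRF1 and 1, 4 and 5 in Kyse410 scramble libraries, and PCDHGB2 had 6, 6 and 7 in Kyse410 shUHRF1 and 1, 8 and 3 in Kyse410 scramble libraries. Both overlap between the groups, and both were named after their counts were seen. Summed over libraries, PCDHGA5, another upstream gene, had 13 reads in Kyse410 shUHRF1 and 1 in Kyse410 scramble. Lower in shUHRF1 were PCDHGB3 (8 against 13 reads), PCDHGA4 (6 against 7), PCDHGA7 (5 against 6) and PCDHGA8 (4 against 5). The beta array ran the other way from the gamma sum, with 1.44 ± 0.178 CPM in Kyse410 shUHRF1 and 1.75 ± 0.214 in Kyse410 scramble libraries. Its libraries overlap. Beside these sums, summed fibroblast markers were 149.8 to 162.4 CPM in Kyse410 shUHRF1 and 113.8 to 124.0 in Kyse410 scramble libraries, with 6 of 8 markers under 10 reads in every library. Summed endothelial markers were 91.0 to 105.0 CPM in Kyse410 shUHRF1 and 24.8 to 25.2 in Kyse410 scramble libraries, with 3 of 4 under 10 reads in every library. In TE10 fibroblast markers summed to 49.8 to 56.4 CPM in shUHRF1 and 44.0 to 47.8 in scramble libraries, and endothelial markers to 12.5 to 15.1 CPM in shUHRF1 and 7.37 to 11.2 in scramble libraries, beside gamma sums of 16.9 CPM in TE10 shUHRF1 and 17.0 in TE10 scramble libraries. Their part in the protocadherin sums was not tested.

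In TE10 no clustered protocadherin was called in either direction, while 38.8% of all tested genes were called, 18.8% higher and 20% lower. None of the 6 reached an unadjusted p under 0.05 with edgeR, and DESeq2 called 0. PCDHGA12 had the largest estimate, with 9, 11 and 14 reads in shUHRF1 and 4, 9 and 8 in scramble libraries. Scaled for depth this was 1.15, 1.41 and 1.86 CPM in shUHRF1, against 0.517, 1.07 and 0.847 CPM in scramble libraries, which do not overlap, and the log2 fold change of 0.83 ± 0.46 missed the threshold (adjusted p = 0.158, edgeR). PCDHGA11 had 2.80, 2.94 and 3.18 CPM in shUHRF1 and 2.58, 1.78 and 2.54 CPM in scramble libraries, again without overlap (0.37 ± 0.30, adjusted p = 0.350, edgeR). Such separation of all shUHRF1 libraries above all scramble libraries was found in 2 of 6 tested members and in 23.1% of all tested genes.

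PCDHGB7, a B-type gamma gene, had 11, 17 and 33 reads in TE10 shUHRF1 and 29, 29 and 33 in TE10 scramble libraries. Its CPM was 1.40, 2.17 and 4.38 in shUHRF1, against 3.75, 3.45 and 3.49 in scramble libraries. Replicates 1 and 2 of the shUHRF1 group lay below every scramble library and replicate 3 lay above all of them, and the log2 fold change was -0.43 ± 0.29 (adjusted p = 0.251, edgeR). Without TE10 shUHRF1 replicate 3 it was -0.99 with an adjusted p of 0.0156, which would be a call. PCDHGA9 had 19, 16 and 14 reads in TE10 shUHRF1 and 13, 12 and 22 in TE10 scramble libraries (0.20 ± 0.33). PCDHGB6 had 30, 28 and 32 in TE10 shUHRF1 and 37, 35 and 34 in TE10 scramble libraries (-0.10 ± 0.24), and PCDHGA10 had 19, 18 and 15 in TE10 shUHRF1 and 25, 16 and 30 in TE10 scramble libraries (-0.31 ± 0.31). Scaled for depth, these 3 overlap between the groups. The 95% intervals of the 6 genes span 0.493-fold to 3.38-fold. The gamma array summed to 16.9 ± 1.91 CPM in TE10 shUHRF1 and 17.0 ± 1.30 in TE10 scramble libraries, and the beta array to 1.29 ± 0.327 CPM in TE10 shUHRF1 and 1.10 ± 0.297 in TE10 scramble libraries.

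**Figure D4:**
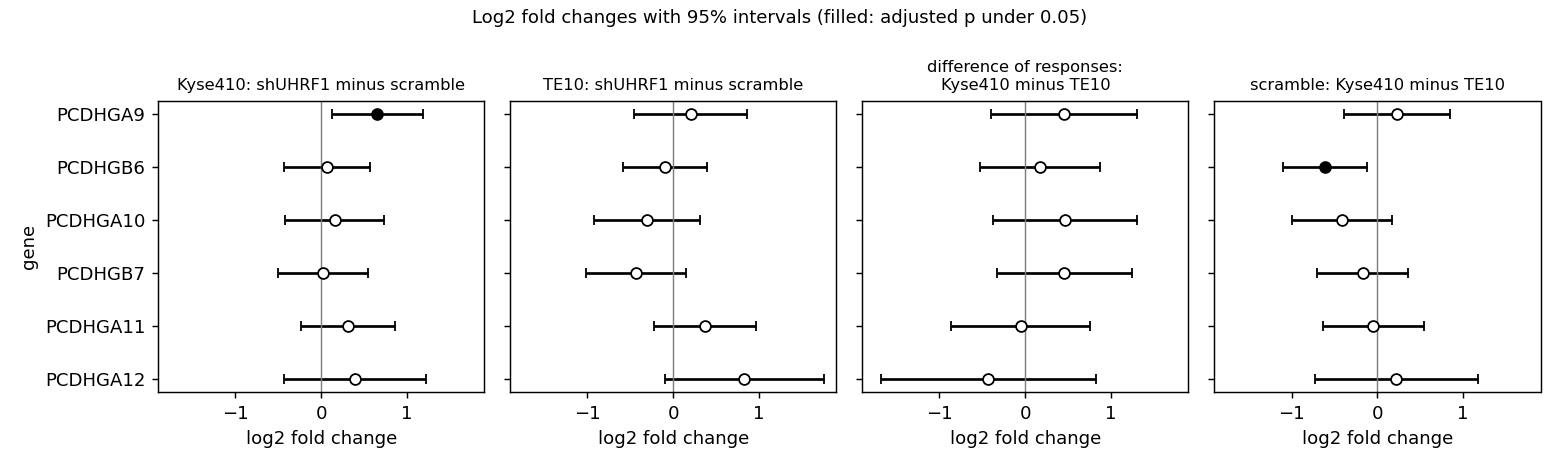
Log2 fold changes of the 6 tested gamma genes with 95% intervals in the 4 comparisons, with filled points where the adjusted p was under 0.05. PCDHGA9 in Kyse410 (0.65) and PCDHGB6 between the scramble groups (-0.61) are the filled points, and every other interval spans 0.

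The responses of the lines did not differ at the threshold for any of the 6 genes, while 38.9% of all tested genes were called, 19% with a higher and 19.9% with a lower response in Kyse410 than in TE10. Differences of log2 fold changes (Kyse410 minus TE10) ran from -0.43 to 0.46 with adjusted p of 0.387 to 0.934 (edgeR). For PCDHGA9 the difference was 0.45 ± 0.42, so its call in Kyse410 and its absence in TE10 are not shown to differ. For PCDHGB7 it was 0.45 ± 0.39, and without TE10 shUHRF1 replicate 3 it was 1.01 with an adjusted p of 0.0481. All 6 estimates were positive in Kyse410, and 3 of them, for PCDHGA9, PCDHGA11 and PCDHGA12, were also positive in TE10. The fourth tested type A gene, PCDHGA10, was at 0.16 in Kyse410 and -0.31 in TE10, and of all these estimates PCDHGA9 in Kyse410 was the 1 called.

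Between the scramble cells of the lines, PCDHGB6 was the 1 member called, and it was lower in Kyse410. It had 36, 25 and 28 reads in Kyse410 scramble and 37, 35 and 34 in TE10 scramble libraries. Its CPM was 2.93, 2.55 and 2.65 in Kyse410, against 4.78, 4.16 and 3.6 in TE10, and the lines do not overlap. The log2 fold change (Kyse410 minus TE10) was -0.61 ± 0.24 (95% interval -1.10 to -0.12, adjusted p = 0.0225, edgeR). DESeq2 did not call it (-0.59, adjusted p = 0.0570), and without TE10 scramble replicate 1 or Kyse410 scramble replicate 2 or 3 its adjusted p was 0.0514 to 0.0927. Of the 6 gamma genes 0 were called higher and 1 lower in Kyse410, and of all tested genes 73.7% were called, 36.7% higher and 37.1% lower.

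PCDHGB7 also lay below TE10 in every Kyse410 scramble library, at 3.17, 3.26 and 3.03 CPM in Kyse410 against 3.75, 3.45 and 3.49 CPM in TE10, but its log2 fold change of -0.17 ± 0.27 did not pass. Among all tested genes 38.3% separated in that direction. The remaining 4 genes had estimates of -0.41 to 0.23 and overlapping libraries (adjusted p 0.202 to 0.886 for the 5 uncalled genes). At the level of arrays, gamma summed to 15.3 ± 1.58 CPM in Kyse410 scramble and 17.0 ± 1.30 in TE10 scramble libraries, a ratio of 0.902, and beta to 1.75 ± 0.214 in Kyse410 scramble and 1.10 ± 0.297 in TE10 scramble libraries, a ratio of 1.58, with no overlap between the lines for beta. Of the beta genes PCDHB15 had 6, 6 and 4 reads in Kyse410 scramble and 1, 0 and 0 in TE10 scramble libraries, a ratio of 13.4 after scaling to gene reads with a counting interval of 2.08 to 562. In shUHRF1 libraries it had 3, 3 and 1 reads in Kyse410 and 1, 4 and 2 in TE10, so that the lines overlap there. It was below the filter, and it was named as one of the most read beta genes.

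The non-clustered protocadherins, whose genes stand alone and encode related adhesion proteins, ranged from no reads to far more than any clustered gene. Of 16 listed genes 15 were matched and 8 were tested, and the 7 untested genes had at most 1 read in any library. Of the 8, 3 were called higher and 2 lower in Kyse410, and 2 higher and 1 lower in TE10, while 49.3% of all tested genes were called in Kyse410 and 38.8% in TE10. Their median log2 fold change was 0.87 in Kyse410 and 0.50 in TE10, beside -0.03 in Kyse410 and 0.0015 in TE10 over all tested genes. PCDH1, an epithelial and endothelial protocadherin, had 516 CPM in Kyse410 shUHRF1 and 278 in Kyse410 scramble libraries (0.89 ± 0.038), and 170.7 in TE10 shUHRF1 and 115.4 in TE10 scramble libraries (0.56 ± 0.046). Its response was larger in Kyse410 (difference 0.33 ± 0.060, adjusted p = 1.194e-05, edgeR). PCDH7 fell in both lines, by 0.41 on the log2 scale in Kyse410 and by 0.57 in TE10. CDHR5, a protocadherin of the intestinal brush border, was higher by 1.42 ± 0.26 in Kyse410 and 1.32 ± 0.45 in TE10, at 5.81 CPM in Kyse410 shUHRF1 against 2.20 in Kyse410 scramble and 1.68 CPM in TE10 shUHRF1 against 0.649 in TE10 scramble libraries. In Kyse410 CDHR2, its brush-border partner, was higher (0.84 ± 0.29) and PCDH12, an endothelial protocadherin, was lower (-0.86 ± 0.34).

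Of 29 regulators of chromatin known or thought to act on the arrays 28 were tested. In Kyse410 9 were called higher and 12 lower, and in TE10 7 higher and 5 lower, with median log2 fold changes of -0.08 in Kyse410 and -0.0087 in TE10. Over all tested genes 22.6% were called higher and 26.7% lower in Kyse410, and 18.8% higher and 20% lower in TE10. DNMT3B, a de novo DNA methyltransferase, was higher by 1.10 ± 0.080 in Kyse410 and 0.55 ± 0.079 in TE10, and the responses differed (adjusted p = 8.15e-05, edgeR). DNMT1, the maintenance methyltransferase, was higher by 0.25 ± 0.040 in Kyse410 and 0.19 ± 0.040 in TE10, and DNMT3A was lower in Kyse410 (-0.27 ± 0.11). TET3, which oxidizes methylcytosine, moved apart in the lines, with -0.42 ± 0.049 in Kyse410 and 0.45 ± 0.057 in TE10 (difference adjusted p = 6.865e-14, edgeR), and its relative TET2 was lower in Kyse410 (-0.34 ± 0.085).

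CTCF, which binds the promoters and the enhancers of the arrays, was called in neither line, with 0.09 ± 0.052 in Kyse410 and 0.04 ± 0.055 in TE10. Of the 5 cohesin subunits listed, 4 were called higher in Kyse410, with SMC1A at 0.44 ± 0.038, STAG1 at 0.29 ± 0.070, RAD21 at 0.26 ± 0.039 and STAG2 at 0.18 ± 0.042, while STAG2 was lower in TE10 (-0.10 ± 0.042). The core subunit SMC3 was not called, at 0.08 ± 0.058 in Kyse410 (adjusted p = 0.234, edgeR) and -0.10 ± 0.058 in TE10 (adjusted p = 0.158, edgeR). NIPBL, the cohesin loader, was lower in both lines, at -0.31 ± 0.043 in Kyse410 and -0.35 ± 0.048 in TE10. WAPL, which releases cohesin, was lower in Kyse410 (-0.26 ± 0.048), and its partner PDS5B was lower in TE10 (-0.18 ± 0.062).

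SMCHD1, a repressor of the clustered protocadherins in mouse, was lower in Kyse410 (-0.24 ± 0.067), and LRIF1, its binding partner, was higher by 0.42 ± 0.094 in Kyse410 and 0.29 ± 0.093 in TE10. The H3K9 methyltransferase SETDB1 and its cofactor ATF7IP were lower in Kyse410, at -0.37 ± 0.066 for SETDB1 and -0.45 ± 0.066 for ATF7IP. TRIM28, a corepressor that recruits SETDB1, was higher by 0.29 ± 0.044 in Kyse410 and 0.33 ± 0.040 in TE10. EHMT2 was higher in Kyse410 (0.22 ± 0.066), and EHMT1 (0.13 ± 0.049) and WIZ (0.36 ± 0.056), members of the same H3K9 methyltransferase complex, were higher in TE10. In Kyse410 the transcription factors ZNF143 (-0.73 ± 0.099) and REST (-0.29 ± 0.065) were lower. RCOR1, a corepressor of REST, was lower in both lines, at -0.15 ± 0.051 in Kyse410 and -0.19 ± 0.060 in TE10. Between the scramble cells 11 of these 28 genes were called higher and 14 lower in Kyse410, in a comparison that called 73.7% of all tested genes, 36.7% higher and 37.1% lower.

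Proteins that bind or process protocadherins changed in both directions. Of 22 tested, 3 were called higher and 10 lower in Kyse410 and 5 higher and 8 lower in TE10, with median log2 fold changes of -0.11 in Kyse410 and -0.05 in TE10. The shares over all tested genes were 22.6% higher and 26.7% lower in Kyse410, and 18.8% higher and 20% lower in TE10. PTK2B, a kinase bound and inhibited by alpha and gamma protocadherins, was higher by 0.82 ± 0.067 in Kyse410 and 0.47 ± 0.084 in TE10. FYN, a Src-family kinase, was lower, at -1.06 ± 0.11 in Kyse410 and -1.69 ± 0.21 in TE10. FEZ1 was lower, at -0.80 ± 0.091 in Kyse410 and -0.76 ± 0.14 in TE10. AXIN1, a scaffold of Wnt signalling that the PCDHGC3 protein binds, was higher by 0.16 ± 0.048 in Kyse410 and 0.44 ± 0.059 in TE10. WASF2, of the actin-regulating WAVE complex, was lower, at -0.23 ± 0.041 in Kyse410 and -0.36 ± 0.048 in TE10.

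Most genes that flank the arrays passed the filter that most clustered protocadherins failed. Of 16 flanking genes 14 were tested, and 4 were called higher and 3 lower in Kyse410, and 2 higher and 2 lower in TE10, with medians of 0.01 in Kyse410 and -0.04 in TE10, beside 49.3% of all tested genes called in Kyse410 and 38.8% in TE10. TAF7, a subunit of the general transcription factor TFIID whose gene lies between the beta and gamma arrays, had 51.1 CPM in Kyse410 shUHRF1 and 62.8 in Kyse410 scramble libraries (-0.29 ± 0.062, called lower) and 83.0 in TE10 shUHRF1 and 90.5 in TE10 scramble libraries (-0.12 ± 0.059, not called). SLC25A2, also within the locus, had no read in any library. DIAPH1, a formin, was higher by 0.10 ± 0.038 in Kyse410 and 0.23 ± 0.038 in TE10. FCHSD1 was higher in Kyse410 (0.30 ± 0.091) and lower in TE10 (-0.37 ± 0.11), with a difference of 0.67 ± 0.14. At baseline 10 of the 14 flanking genes were called lower and 2 higher in Kyse410 than in TE10, with a median of -0.46 beside -0.0015 over all tested genes, of which 37.1% were called lower and 36.7% higher. Medians and counts of these lists are descriptions, and no list was tested.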

How the data were processed

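Polyadenylated RNA of 12 libraries was measured as raw counts of reads per gene, 1 set per library. Per the submitters' processing notes, which name no roles or order, the authors used HTSeq 0.9.1, HISAT2 2.1.0, bcl2fastq 2.19, DESeq2 and the build GRCh37.p13. Neither the annotation release nor the mode and strand options of HTSeq are given in the sources used here. The deposited counts were read unchanged and HTSeq's 5 counters of unassigned reads were kept out of library sizes and tests. Reads outside any counted feature made up 42.9 to 44.7% of each library.

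Identifiers were matched without their version to symbols in GENCODE v29 and a gene name table. This named 52339 of 57820 identifiers, which held 99.03% of the gene reads, and UHRF1 was named by hand from ENSG00000034063. GENCODE v29 is of build GRCh38 and served only for names, gene order and shared exonic bases. Promoters and their coordinates come from RefSeq (GRCh38.p14), with 1 start per gene.

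Genes were kept by filterByExpr (minimum count 10) and scaled by TMM. One edgeR 4.0.16 quasi-likelihood fit in R 4.3.3 covered all 12 libraries, with group means as coefficients and 8 residual degrees of freedom. Calls required an adjusted p under 0.05 (Benjamini-Hochberg over 16060 genes). Levels are TMM-scaled CPM. Pooled ratios of reads have exact conditional binomial intervals at 95%. Between replicates the chi-square per degree of freedom was 1.58 to 3.07, so spread exceeded counting error and no replicate pair was merged. DESeq2 1.42.0, other scalings and filters, smaller sets of libraries and a replicate block were alternatives.

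Named genes were UHRF1, every called member, the 3 most read members per array and line at baseline, the C-type genes, the called chromatin regulators and up to 6 called genes of each other list. A result that this rule takes is not reported here. The members and lists were chosen with earlier results of these data known, and some genes in the text are said to have been named after their counts were seen.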

Additional observations from a re-analysis of the deposited data

Results flagged for a closer look

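PCDHGA5, a type A gamma gene below the filter on low counts, stood out in the difference between the knockdown responses of the lines when no filter was applied, and it was chosen after its counts were seen. It had 6, 2 and 5 reads in Kyse410 shUHRF1 and 0, 1 and 0 in Kyse410 scramble libraries, and 0, 0 and 0 in TE10 shUHRF1 and 3, 1 and 1 in TE10 scramble libraries. Every Kyse410 shUHRF1 library lay above every Kyse410 scramble library, and every TE10 shUHRF1 library lay below every TE10 scramble library. Among genes that passed the filter, which PCDHGA5 did not, 25.6% separated upward in Kyse410 and 23.8% downward in TE10. In Kyse410 the 13 reads of shUHRF1 against 1 of scramble give a ratio of 13.3 after scaling to gene reads, with a 95% counting interval of 2.003 to 567. In TE10 no read was found in shUHRF1 libraries, which allows up to 0.124 CPM, against 5 reads in scramble libraries. Over 31042 unfiltered genes edgeR gave the difference of responses an adjusted p of 0.0122, the Kyse410 response one of 0.0460 and the TE10 response one of 0.161. All 3 rest on 19 reads in all.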

How the results depend on the processing

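The calls rest on few reads. DESeq2 in place of edgeR called 0 members higher in Kyse410 and 0 lower at baseline. With no filter on low counts, 1 member was called higher for the difference of responses (PCDHGA5) and 1 higher at baseline (PCDHB15), and in Kyse410 the 1 call was PCDHGA5, while PCDHGA9 had an adjusted p of 0.0564. Leaving out 1 library at a time gave 0 to 1 calls in each of 4 counts, namely lower in TE10, higher in Kyse410, higher for the difference and lower at baseline. PCDHGA9 in Kyse410 remained called in 12 of 19 alternatives (0.52 to 0.72, adjusted p 0.0241 to 0.162) and PCDHGB6 at baseline in 15 of 19 (-0.71 to -0.51, adjusted p 0.0177 to 0.0927). Some alternatives left out a library outside the comparison. Without any 1 TE10 library the PCDHGA9 estimate stayed at 0.65 to 0.68. Of fits without a Kyse410 library, only that without shUHRF1 replicate 3 kept its call (adjusted p = 0.0416, edgeR). The baseline comparison likewise holds no shUHRF1 library. Of fits without a scramble library, those without TE10 replicate 1 or Kyse410 replicate 2 or 3 lost the PCDHGB6 call. Estimates near 0 changed sign in 15 fits, with adjusted p of at least 0.702. With 1 library left out these ran from -0.20 to 0.0022 for PCDHGB6 in TE10, from -0.019 to 0.24 for PCDHGB6 and -0.066 to 0.11 for PCDHGB7 in Kyse410, from -0.24 to 0.099 for the PCDHGA11 difference, and at baseline from -0.20 to 0.14 for PCDHGA11 and -0.17 to 0.57 for PCDHGA12. Upper quartile scaling gave PCDHGA11 0.0003 for the difference and 0.0056 at baseline. The replicate block left the counts at 1 higher in Kyse410, 1 lower at baseline and 0 elsewhere. In a check for pairing, libraries with the same number in compared groups had correlations of -0.012 to 0.037 and matched best in 4 of 9 cases. This did not show that the numbers pair the libraries, and with 3 libraries a group it cannot exclude it. The cause of these changes was not tested. Tests were made for 6 genes, at 4 to 44 reads a library.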
